A study of Mus musculus with 11 samples.

Results

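The genes described here encode exchangeable subunits of the BAF chromatin remodeler, the mammalian SWI/SNF complex. The 10 members were found by their symbol in a table of 37991 genes: 4 subunits of the progenitor form (Actl6a, Phf10, Dpf2 and Ss18), 4 subunits of the neuronal form (Actl6b, Dpf1, Dpf3 and Ss18l1) and the alternative ATPases Smarca4 and Smarca2. Each symbol matched 1 row, and all 10 passed the filter on low values (at least 1 CPM, counts per M (mega) reads, in at least 2 libraries), as did 13342 genes in all. Actl6b passed only through the day 4 cultures.

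RNA was measured in 11 libraries of cultured primary cells that began as neural stem cells from the frontal cortex of C57BL/6J embryos at E14.5 (embryonic age in days). The NSC group was collected at day 0, in proliferation medium (n = 3). The others were collected at day 4 after a change to a differentiation medium: Astrocyte (DMEM with 1% N-2 and 1% fetal bovine serum, n = 3), Neuron (Neurobasal with 2% B-27, n = 3) and Oligodendrocyte (as Neuron, plus 30 ng/mL of T3, a thyroid hormone, n = 2). A group name is that of the medium, and no day 4 culture in proliferation medium was among the libraries, so medium and time in culture cannot be told apart in comparisons with NSC. Those 3 comparisons share the NSC libraries.

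BAF complexes use the energy of ATP to slide or evict nucleosomes and so open or close regulatory DNA. In the developing nervous system dividing progenitors carry one set of accessory subunits and neurons that have left the cell cycle carry another, an exchange known as the switch from npBAF to nBAF. In it the actin-related protein ACTL6A (BAF53a) gives way to ACTL6B (BAF53b), the PHD-finger proteins PHF10 and DPF2 to DPF1 and DPF3, and SS18 to SS18L1 (CREST). The repressor REST keeps neuronal genes silent in progenitors, among them the microRNAs miR-9-3p (also called miR-9*) and miR-124, and these microRNAs act against Actl6a mRNA.

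The sequences that this background rests on are shown because the members' 3′ UTRs differ in whether they hold the site. The mature miR-9-3p from RefSeq (GRCm38.p6, Mir9-1 locus, chr3:88215652-88215673, plus strand) has its seed, bases 2 to 8, in capitals, and the windows of 30 bases from the 3′ UTRs (GENCODE M21, GRCm38, plus strand) have the match to that seed in capitals.
miR-9-3p: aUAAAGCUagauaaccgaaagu
Actl6a (chr3:32726628-32726657): ctcaacgtctgtAGCTTTAgtacactcagg
Smarca2 (chr19:26777490-26777519): tcatctagaactAGCTTTAgggtagtgcca
In 1 chosen transcript per gene, AGCTTTA occurred once in the 3′ UTR of Actl6a (bases 38 to 44 of 371) and once in that of Smarca2 (bases 132 to 138 of 951), and not in the other 8 members. It was present in 11.1% of the 20981 genes with a 3′ UTR. In windows of the same length at the start of longer 3′ UTRs the share was 2.81% for the length of Actl6a and 8.17% for that of Smarca2. The match to the seed of miR-9-5p, ACCAAAG, was found in none of the 10, against 12.1% of all genes. The mature sequence of miR-124 is only named here. A match is a description of the letters and does not show that a site is used. As given below, Actl6a fell and Smarca2 rose, and the part of the site in either change was not tested.

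Actl6b is the member closest to absent in NSC, and a window of 30 bases at its RefSeq start (GRCm38.p6, plus strand) is shown for the half-sites of RE1, the element that REST binds. The capitals are, on the plus strand, the reverse complements of GGACAG and CAGCACC.
Actl6b (chr5:137553564-137553593): ggagCTGTCCggccgcctcGGTGCTGatcc
The half-sites lay 23 to 44 bases after the start, counted from 1 at the first base of the gene, with 9 bases between them. Among 32851 promoter windows (250 bases before to 50 after a start, both strands searched), CAGCACC was present in 7.14%, GGACAG in 22.2% and both in order within 20 bases in 0.119%. The full RE1 consensus was present in 0.0639% of the windows and in none of the 9 members examined. Ss18 was not examined. Dpf2 held GGACAG alone, and the other 7 members examined held neither half-site.

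Estimated depth was 49.3 to 66.2 M (mega) reads per library, and across genes the correlation of log2 values was 0.990 to 0.999 between libraries of a group. The labelled cell types were checked against marker lists, whose summed levels are given in CPM. Proliferation markers summed to 4660 to 4756 in NSC, 180.1 to 204 in Astrocyte, 139 to 162 in Neuron and 235 to 242 in Oligodendrocyte, and 10 of 10 fell in each medium. Neuron markers summed to 936 to 1019 in NSC, 788 to 822 in Astrocyte, 928 to 1212 in Neuron and 825 to 838 in Oligodendrocyte. Most of that sum was Map2 (836 to 926 CPM in NSC), which fell in Astrocyte and Oligodendrocyte and did not pass the test in Neuron, while Gap43 was also lower than NSC in every medium. Of the 8 neuron markers tested, 5 rose and 3 fell in Astrocyte, 5 rose and 1 fell in Neuron, and 4 rose and 3 fell in Oligodendrocyte. Among all tested genes 48% rose and 35.6% fell in Astrocyte, 43.5% and 39.6% in Neuron, and 48.1% and 32.2% in Oligodendrocyte. These shares are the background for each marker count in this paragraph. Dcx, a gene of young neurons, went from 1.33 to 2.02 CPM in NSC to 85.2 to 177 CPM at day 4, and Tubb3 from 3.51 to 4.48 to 24.9 to 56.4 CPM. Stmn2 and Nefl, also on the list, were not tested and reached at most 0.98 and 0.5 CPM in any library. In Astrocyte and Oligodendrocyte the sum of neuron markers was thus below NSC, although more of those tested rose than fell, as among all genes. Astrocyte markers summed to 1881 to 1973 in NSC, 15749 to 17469 in Astrocyte, 11840 to 12956 in Neuron and 5495 to 6262 in Oligodendrocyte. Mature oligodendrocyte markers summed to 70.0 to 78.5 in NSC, 424 to 543 in Astrocyte, 2631 to 2803 in Neuron and 2527 to 2893 in Oligodendrocyte. Both of these sums were thus above NSC in every day 4 group, the Neuron group included. Oligodendrocyte precursor markers summed to 1813 to 1946 in NSC, 719.8 to 809 in Astrocyte, 1637 to 2203 in Neuron and 1345 to 1469 in Oligodendrocyte. Of these 7 genes, 3 rose and 4 fell in Astrocyte, 4 rose and 3 fell in Neuron, and 3 rose and 4 fell in Oligodendrocyte. Microglia markers summed to at most 0.33 CPM in any library. The part of these markers' cell types in the members' changes was not tested, and in bulk RNA fewer cells of a type cannot be told apart from less RNA per cell.

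At day 4 neither set of subunits moved as a whole. Of the neuronal subunits, Actl6b and Ss18l1 rose in all 3 media, while Dpf1 and Dpf3 fell in all 3. Of the progenitor subunits, Actl6a fell strongly in all 3, Ss18 fell in Astrocyte and Neuron, Phf10 fell in Neuron and Oligodendrocyte, and Dpf2 was the only one of the 4 to rise, in Neuron. Smarca4 fell and Smarca2 rose in all 3. The plots of CPM by library and of the changes against NSC show these directions.

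**Figure D1:**
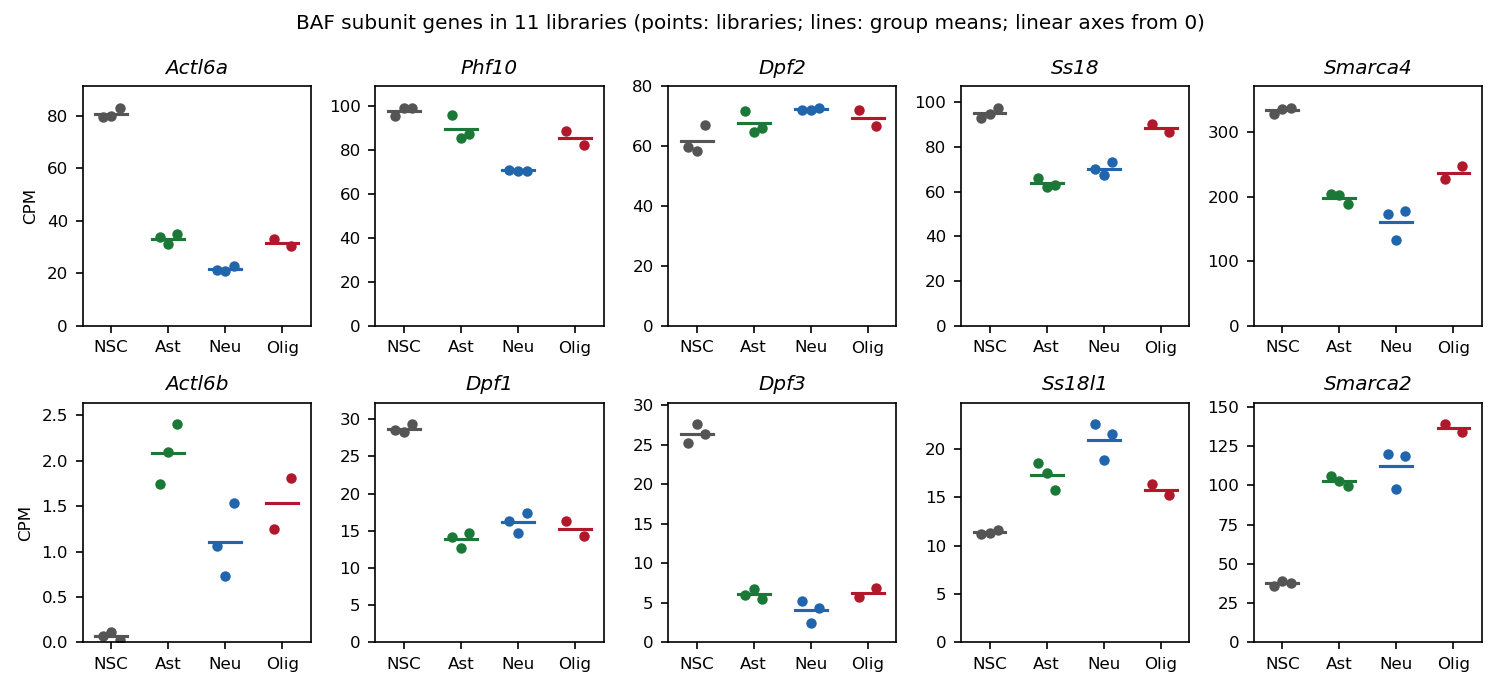
CPM (linear axes from 0) of the 10 genes in NSC, Astrocyte (Ast), Neuron (Neu) and Oligodendrocyte (Olig) libraries, with 1 point per library and a line at each group mean. Actl6a, Dpf1, Dpf3 and Smarca4 were highest in the 3 NSC libraries, and Actl6b, Ss18l1 and Smarca2 were lowest there.

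Changes were tested with limma on log2(CPM + 1) over all 13342 genes, with Benjamini-Hochberg adjustment, and an adjusted p under 0.05 made a call. A log2 fold change on this scale understates the change of low genes. In Astrocyte vs NSC 8 of the 10 members were called, 3 higher and 5 lower, where 83.6% of all tested genes were called (48% higher, 35.6% lower). In Neuron vs NSC all 10 were called, 4 higher and 6 lower, against 83.1% of all genes (43.5% higher, 39.6% lower). In Oligodendrocyte vs NSC 8 were called, 3 higher and 5 lower, against 80.2% (48.1% higher, 32.2% lower). The members' shares of calls were thus near those of all genes, and what follows rests on direction and size. The members' median log2 fold changes were -0.35, -0.45 and -0.15 in Astrocyte, Neuron and Oligodendrocyte vs NSC, beside 0.15, 0.06 and 0.19 for all tested genes. Of all genes called in Oligodendrocyte vs NSC, 59.9% were higher, a share that was 49.9% with libraries scaled by the median of ratios and 49.1% with quantile normalization.

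**Figure D2:**
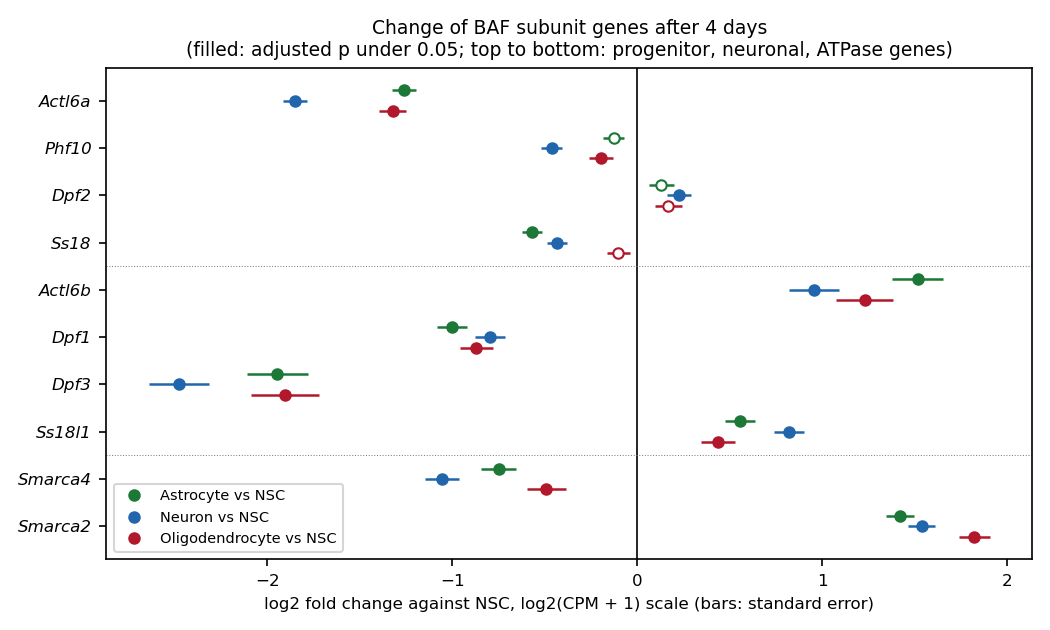
Log2 fold change of each gene against NSC on the log2(CPM + 1) scale, with bars of 1 standard error, filled where the adjusted p was under 0.05 and open otherwise. Actl6b and Ss18l1 lie to the right of 0 and Dpf1 and Dpf3 to the left in all 3 media, the largest fall being that of Dpf3 in Neuron (-2.48).

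Actl6a (ENSMUSG00000027671, mm9 chr3:32607468-32625890) encodes BAF53a, the actin-related subunit of progenitors, which is also part of the INO80 and TIP60 complexes. It was at 79.6, 79.7 and 82.9 CPM in NSC, 33.7, 31.0 and 34.8 in Astrocyte, 21.3, 20.9 and 22.8 in Neuron and 33.0 and 30.4 in Oligodendrocyte. All NSC libraries were above all others, and the Neuron libraries were below all others. The log2 fold change was -1.26 in Astrocyte (SE 0.0648, adjusted p 3.73e-10), -1.85 in Neuron (SE 0.0648, 7.45e-12) and -1.32 in Oligodendrocyte (SE 0.0724, 9.80e-10), by limma. Neuron was lower than Astrocyte and Oligodendrocyte, and these last 2 overlapped (log2 difference -0.06, limma adjusted p 0.493). The gene Mrpl47 overlaps Actl6a on the opposite strand by 1572 bases and was at 27.7, 18.8, 14.3 and 22.2 CPM on average in NSC, Astrocyte, Neuron and Oligodendrocyte. Whether counting used the strand is not given in the sources used here, so reads from the overlap cannot be assigned.

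Actl6b (ENSMUSG00000029712, mm9 chr5:137994745-138010810) encodes BAF53b, the neuronal counterpart needed for dendrite growth. It was at 0.07, 0.12 and 0.03 CPM in NSC, 1.74, 2.10 and 2.40 in Astrocyte, 1.06, 0.73 and 1.53 in Neuron and 1.25 and 1.81 in Oligodendrocyte. The NSC values stand for about 13 reads in the 3 libraries together (0.0739 CPM, exact Poisson 95% interval 0.0393 to 0.126, counting error only), and the Neuron values for about 185. Every day 4 library was above every NSC library, yet none exceeded 2.40 CPM. Against NSC the log2 fold change was 1.52 in Astrocyte (SE 0.136, limma adjusted p 1.52e-07), 0.96 in Neuron (1.78e-05) and 1.23 in Oligodendrocyte (5.03e-06). Actl6b entered these tests only through the day 4 libraries, where it was high. As a ratio of mean CPM the rise was 28.4-fold, 15.1-fold and 20.9-fold. The pseudocount moved the log2 values most, to 3.67, 2.78 and 3.24 at 0.1 CPM and 0.48, 0.27 and 0.36 at 5 CPM, with the calls retained. The level was higher in the Astrocyte than in the Neuron medium (0.56, adjusted p 0.00287), and Oligodendrocyte lay between them and overlapped both.

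The remaining pair of the same kind is Ss18 and Ss18l1. Ss18 (ENSMUSG00000037013), the progenitor SS18 subunit, was at 92.8, 94.8 and 97.5 CPM in NSC, 66.2, 61.9 and 63.0 in Astrocyte, 70.0, 67.4 and 73.0 in Neuron and 90.3 and 86.6 in Oligodendrocyte. It fell in Astrocyte (log2 fold change -0.57, limma adjusted p 3.20e-07) and Neuron (-0.43, 5.62e-06). The Oligodendrocyte libraries lay below all NSC libraries without passing the test (-0.10, adjusted p 0.139), and they passed it under median-of-ratios scaling (-0.32, 7.71e-05) and quantile normalization (-0.14, 0.0211). In Oligodendrocyte the level was higher than in Neuron (0.33, limma adjusted p 0.000345) and in Astrocyte (0.47, 3.00e-05), whose medium differs in more than T3.

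Ss18l1 (ENSMUSG00000039086, mm9 chr2:179777214-179804906) encodes CREST, a calcium-responsive transactivator of dendrite growth. It was at 11.3, 11.4 and 11.6 CPM in NSC, 18.6, 17.5 and 15.8 in Astrocyte, 22.6, 18.8 and 21.6 in Neuron and 16.4 and 15.2 in Oligodendrocyte. Neuron libraries were the highest, above all Astrocyte and Oligodendrocyte libraries, and NSC the lowest. On the log2 scale the change against NSC was 0.56 in Astrocyte (SE 0.0828, limma adjusted p 2.71e-05), 0.82 in Neuron (SE 0.0828, 5.45e-07) and 0.44 in Oligodendrocyte (SE 0.0926, 0.000678). The call in Oligodendrocyte was lost under quantile normalization (0.18, adjusted p 0.0641).

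The PHD-finger subunits went against the neuronal pattern. Dpf1 (ENSMUSG00000030584, mm9 chr7:30088970-30102607), which encodes BAF45b, was at 28.6, 28.3 and 29.3 CPM in NSC, 14.2, 12.7 and 14.7 in Astrocyte, 16.3, 14.7 and 17.4 in Neuron and 16.3 and 14.3 in Oligodendrocyte. The NSC libraries were above all day 4 libraries, which overlapped each other between media. The log2 fold change was -1.0 in Astrocyte (SE 0.0818, limma adjusted p 5.48e-08), -0.80 in Neuron (6.29e-07) and -0.87 in Oligodendrocyte (9.34e-07).

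Dpf3 (ENSMUSG00000021221, mm9 chr12:84314732-84451882), which encodes BAF45c and binds acetylated and methylated histones, fell further. It was at 25.2, 27.6 and 26.3 CPM in NSC, 6.05, 6.77 and 5.5 in Astrocyte, 5.26, 2.50 and 4.38 in Neuron and 5.76 and 6.85 in Oligodendrocyte. The Neuron libraries were below all others and the spread among them was wide, replicate 2 being the lowest. Against NSC the log2 fold change was -1.95 in Astrocyte (SE 0.165, limma adjusted p 7.84e-08), -2.48 in Neuron (6.27e-09; -2.24 without Neuron replicate 2) and -1.91 in Oligodendrocyte (3.83e-07). A member labelled neuronal was thus lowest in the Neuron medium, where proliferation markers summed to 139 to 162 CPM. Of the neuron markers there, Dcx was at 105.8 to 177 CPM, but Gap43 fell and Map2 did not pass the test. Stmn2 and Nefl were at most 0.67 and 0.24 CPM. Astrocyte markers summed to 11840 to 12956 CPM and mature oligodendrocyte markers to 2631 to 2803 CPM, so the fall was not measured in neurons alone.

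The progenitor counterparts moved little. Phf10 (ENSMUSG00000023883, mm9 chr17:15081999-15129820), which encodes BAF45a, was at 95.6, 99.2 and 98.9 CPM in NSC, 95.9, 85.5 and 87.4 in Astrocyte, 71.1, 70.6 and 70.5 in Neuron and 88.5 and 82.3 in Oligodendrocyte. The 3 Neuron libraries were close to each other and below all others, and 1 Astrocyte library was within the NSC range. Phf10 fell in Neuron (log2 fold change -0.46, limma adjusted p 4.86e-06) and in Oligodendrocyte (-0.19, 0.0135), the latter not without Oligodendrocyte replicate 2 (-0.14, 0.137). In Astrocyte it was at -0.13 (0.0553), and passed the test without Astrocyte replicate 1 (-0.18, 0.0154), without Neuron replicate 2 (0.0382) and under median-of-ratios scaling (-0.31, 9.35e-05). On the opposite strand 1600012H06Rik overlaps Phf10 by 14577 bases and was at 27.7, 33.2, 34.8 and 25.8 CPM on average in NSC, Astrocyte, Neuron and Oligodendrocyte.

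Dpf2 (ENSMUSG00000024826, mm9 chr19:5896516-5913010) encodes BAF45d, which is expressed in most tissues. It was at 59.8, 58.3 and 67.1 CPM in NSC, 71.8, 64.9 and 66.2 in Astrocyte, 72.1, 72.0 and 72.8 in Neuron and 72.0 and 66.7 in Oligodendrocyte. NSC overlapped Astrocyte and Oligodendrocyte but not Neuron. On the log2 scale the change against NSC was 0.23 in Neuron (limma adjusted p 0.00588), 0.13 in Astrocyte (0.0813) and 0.17 in Oligodendrocyte (0.0504). The call in Neuron was kept under all 20 alternatives (largest limma adjusted p 0.0343). The small values in Astrocyte and Oligodendrocyte turned on 1 library and on the scaling. Without NSC replicate 3 they were 0.19 in Astrocyte (0.0162) and 0.23 in Oligodendrocyte (0.0108), and the Oligodendrocyte value also passed without Neuron replicate 2 (0.0332) or Astrocyte replicate 1 (0.0471). Under median-of-ratios scaling they were -0.05 in both media.

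The ATPases changed in opposite directions. Smarca4 (ENSMUSG00000032187, mm9 chr9:21420613-21508674) encodes BRG1, the ATPase that embryonic and neural progenitors require. It was at 328, 335 and 337 CPM in NSC, 204, 202 and 188 in Astrocyte, 173, 133 and 178 in Neuron and 228 and 247 in Oligodendrocyte. The order from NSC over Oligodendrocyte and Astrocyte to Neuron had no overlap between groups, though the step from Oligodendrocyte to Astrocyte did not pass the test (0.26, limma adjusted p 0.0514). That step passed when any 1 Neuron library was left out (adjusted p 0.0442, 0.00117 and 0.0404 without replicates 1, 2 and 3). The log2 fold change was -0.75 in Astrocyte (SE 0.0928, 4.30e-06), -1.05 in Neuron (SE 0.0928, 1.27e-07; -0.92 without Neuron replicate 2) and -0.49 in Oligodendrocyte (SE 0.104, 0.000643), by limma.

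Smarca2 (ENSMUSG00000024921, mm9 chr19:26679605-26852811) encodes BRM, the alternative ATPase that is prominent in differentiated cells. It was at 36.2, 39.3 and 38.1 CPM in NSC, 106, 103 and 99.7 in Astrocyte, 119.9, 97.8 and 119.0 in Neuron and 139 and 134 in Oligodendrocyte. Every day 4 library was above every NSC library, with the Oligodendrocyte libraries highest. Against NSC the log2 fold change was 1.42 in Astrocyte (SE 0.0749, limma adjusted p 4.95e-10), 1.54 in Neuron (SE 0.0749, 2.35e-10) and 1.82 in Oligodendrocyte (SE 0.0838, 1.55e-10). Smarca2 and Actl6a had the smallest adjusted p-values among the 10 members in each of these comparisons.

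The balance within each paralog pair was followed in each library as the log2 ratio of the later to the earlier partner, less its mean in NSC, so that gene length largely drops out for genes well above the pseudocount, which Actl6b in NSC is not. Its mean is given with the SD over libraries and has no test. Smarca2 over Smarca4 shifted by 2.17 ± 0.0274 in Astrocyte (SD, n = 3), 2.59 ± 0.0721 in Neuron (SD, n = 3) and 2.31 ± 0.119 in Oligodendrocyte (SD, n = 2). Actl6b over Actl6a shifted by 2.78 ± 0.163, 2.81 ± 0.214 and 2.55 ± 0.309 in the same order, values that ran from 1.59 to 4.96 with pseudocounts of 5 and 0.1 CPM. Both pairs moved toward the later partner in every day 4 library. For Smarca2 over Smarca4 the media did not overlap, with Neuron furthest and Astrocyte least, and for Actl6b over Actl6a they overlapped.

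Ss18l1 over Ss18 shifted by 1.13 ± 0.0926 in Astrocyte, 1.25 ± 0.0990 in Neuron and 0.54 ± 0.0292 in Oligodendrocyte. The PHD-finger pairs shifted the other way. Dpf1 fell relative to Phf10 by 0.87 in Astrocyte, 0.34 in Neuron and 0.68 in Oligodendrocyte, and relative to Dpf2 by 1.13, 1.03 and 1.04. Dpf3 fell relative to Phf10 by 1.82, 2.02 and 1.71, and relative to Dpf2 by 2.08, 2.71 and 2.08. In each of these 7 pairs, which share members, no day 4 library lay within the NSC range. How often other gene pairs separate in this way was not computed. Of all tested genes, 83.6%, 83.1% and 80.2% were called against NSC in Astrocyte, Neuron and Oligodendrocyte.

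**Figure D3:**
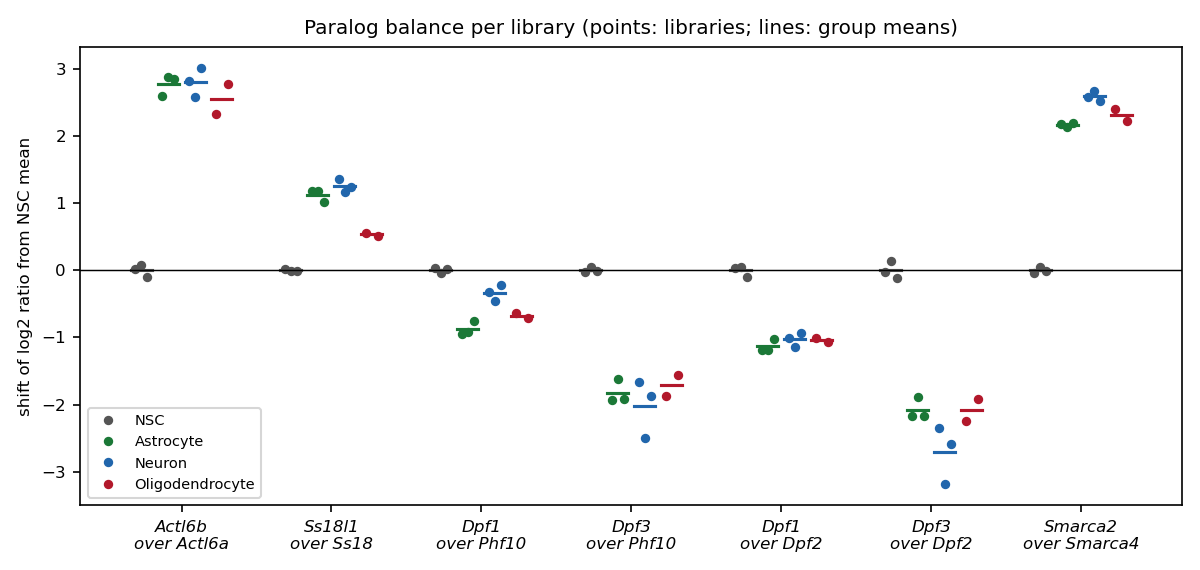
Shift of the log2 ratio of 2 paralogs, log2(CPM + 1) scale, from its NSC mean, with 1 point per library and a line at each group mean. The 3 pairs Actl6b over Actl6a, Ss18l1 over Ss18 and Smarca2 over Smarca4 lie above 0 at day 4, and the 4 pairs with Dpf1 or Dpf3 lie below 0.

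Between the day 4 media the members differed less. In Astrocyte vs Neuron 8 members were called, 5 higher in Astrocyte and 3 lower, where 62.2% of all genes were called (40.3% higher, 22% lower). In Oligodendrocyte vs Neuron, media that differ in the labels by T3, 7 were called, 6 higher and 1 lower, against 67.5% (43.9% higher, 23.6% lower). In Oligodendrocyte vs Astrocyte 2 were called, Ss18 and Smarca2, both higher, against 52.2% (28.7% higher, 23.5% lower). The members' medians were 0.10, 0.28 and 0.04, beside 0.10, 0.15 and 0.04 for all genes. The share of called genes that were higher depended on the scaling: 64.7% in Astrocyte vs Neuron and 65.1% in Oligodendrocyte vs Neuron became 52.8% and 52.5% with median-of-ratios scaling and 49.0% and 48.4% with quantile normalization.

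The Neuron medium gave the lowest Actl6a, Phf10, Dpf3 and Smarca4 and the highest Ss18l1. Against Neuron, Actl6a was higher in Astrocyte by 0.59 (limma adjusted p 3.66e-06) and in Oligodendrocyte by 0.53 (2.56e-05). Smarca4 was higher by 0.30 (0.0116) and 0.56 (0.000326), the first of which was lost under median-of-ratios scaling (0.20, 0.0542). Phf10 was higher by 0.34 (0.000210) and 0.27 (0.00246), the second being lost under median-of-ratios scaling (0.0663) and quantile normalization (0.115). Ss18l1 was lower by 0.26 on the log2 scale in Astrocyte (0.0134) and by 0.38 in Oligodendrocyte (0.00243), and the first was lost without Neuron replicate 1 (0.0599) or Astrocyte replicate 3 (0.0649).

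Dpf3 was higher than in Neuron by 0.53 in Astrocyte (limma adjusted p 0.0127) and 0.57 in Oligodendrocyte (0.0144). Without Neuron replicate 2 these were 0.29 (0.0200) and 0.33 (0.0154). The first was lost without Astrocyte replicate 2 (0.0531), the second without Oligodendrocyte replicate 2 (0.119), and both under quantile normalization (0.0822 and 0.104). Smarca2 was higher in Oligodendrocyte than in Neuron by 0.29 (0.00845), which was lost without Oligodendrocyte replicate 1 (0.0643) and under both other scalings (0.0913 and 0.0525). It was higher than in Astrocyte by 0.40 (0.00126). In Astrocyte vs Neuron it was at -0.12 (0.188), and at -0.21 without Neuron replicate 2 (0.00342).

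The weakest calls were those of Ss18 (-0.14, limma adjusted p 0.0448) and Dpf1 (-0.20, 0.0462) in Astrocyte vs Neuron. Leaving out single libraries raised the adjusted p to as much as 0.149 for Ss18 (without Neuron replicate 3) and 0.185 for Dpf1 (without Astrocyte replicate 2). Actl6b in Oligodendrocyte vs Neuron was at 0.27 (0.129), and at 0.41 without Neuron replicate 3 (0.0235). Dpf2 was not called between media, but under median-of-ratios scaling and quantile normalization it was lower than Neuron in Astrocyte (-0.20, 0.00948 and -0.17, 0.0211) and in Oligodendrocyte (-0.20, 0.0166 and -0.22, 0.0111). Dpf1 in Oligodendrocyte vs Neuron was at -0.07 (0.505), and passed under the same scalings (-0.20, 0.0377 and -0.28, 0.00835).

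Among 21 further BAF subunit genes, 6 rose, 10 fell and 5 did not pass the test in each of the 3 media against NSC, with medians of -0.04, -0.14 and -0.21 in Astrocyte, Neuron and Oligodendrocyte. Among all tested genes 83.6%, 83.1% and 80.2% were called and the medians were 0.15, 0.06 and 0.19, so the share of calls was near the background. The core scaffold subunit Smarcc1 (BAF155) fell from 226, 234 and 219.7 CPM in NSC to 95 to 99.3 in Astrocyte, 94.7 to 118.7 in Neuron and 99.4 to 101.03 in Oligodendrocyte. Its log2 fold changes were -1.21, -1.04 and -1.17 (limma adjusted p 3.01e-09, 1.65e-08 and 1.93e-08). Bcl7c, another subunit gene, fell by 1.04, 0.83 and 1.02 on the log2 scale (1.08e-08, 1.22e-07 and 5.60e-08). Actb, whose actin product is both a BAF subunit and part of the cytoskeleton, fell by 1.09, 0.70 and 0.79 (1.01e-07, 1.11e-05 and 1.14e-05).

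Bcl11a, a zinc-finger BAF subunit of brain, rose from 1.15, 1.17 and 1.16 CPM in NSC to 6.16, 7.16 and 8.68 in Astrocyte, 4.02, 3.12 and 3.86 in Neuron and 3.30 and 2.46 in Oligodendrocyte. The day 4 libraries were all above NSC, and the Astrocyte libraries were the highest. The log2 fold changes were 1.94, 1.11 and 0.84 (limma adjusted p 3.23e-09, 1.33e-06 and 6.79e-05), the last of which was lost under quantile normalization (0.17, 0.252). Outside the naming rule, and chosen after their values were seen, are Smarcc2 (BAF170), the partner of Smarcc1, and Smarcd3 (BAF60c). Smarcc2 rose by 0.54, 0.60 and 0.34 (3.19e-05, 1.30e-05 and 0.00405) and Smarcd3 by 0.76, 0.23 and 0.37 (3.58e-07, 0.0109 and 0.000948).

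**Figure D4:**
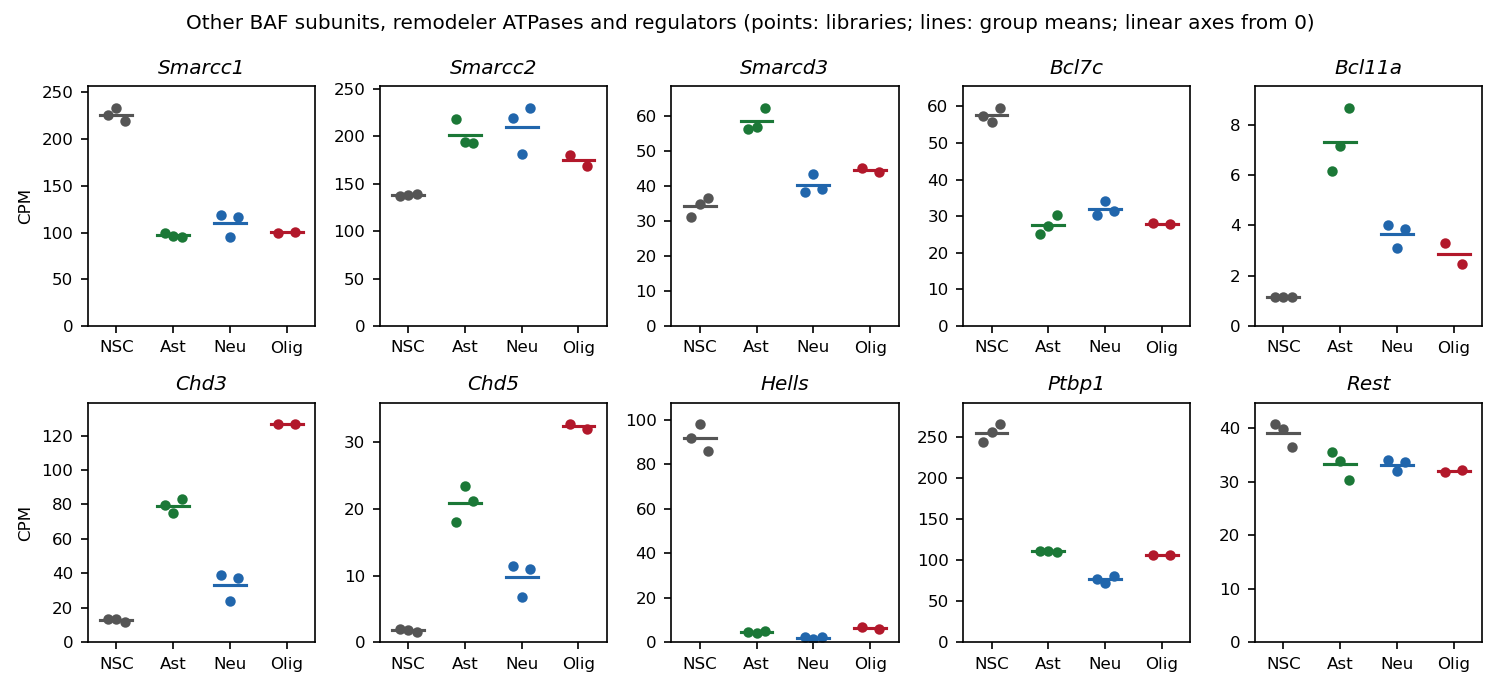
CPM (linear axes from 0) of 5 further BAF subunit genes, 3 remodeler ATPase genes and the regulators Ptbp1 and Rest in NSC, Astrocyte (Ast), Neuron (Neu) and Oligodendrocyte (Olig) libraries, with 1 point per library and a line at each group mean. Chd3 and Chd5 were highest in the 2 Oligodendrocyte libraries, while Hells, Smarcc1 and Ptbp1 were highest in NSC.

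Of 16 ATPase genes of other remodelers, 4 rose and 10 fell in Astrocyte, 4 rose and 8 fell in Neuron, and 3 rose and 8 fell in Oligodendrocyte, with medians of -0.42, -0.25 and -0.49, beside the same shares and medians of all genes. Hells, a DNA methylation and replication-linked remodeler, fell most, from 86.1 to 98.0 CPM in NSC to 4.44 to 5.23 in Astrocyte, 1.75 to 2.47 in Neuron and 6.04 to 7.01 in Oligodendrocyte (log2 fold changes -4.0, -4.88 and -3.63, limma adjusted p 2.59e-13, 5.69e-14 and 2.92e-12). Proliferation markers had median log2 fold changes of -4.50, -5.16 and -4.39 in the same comparisons, and their part in the changes of Hells was not tested. Chd1, of the CHD family, fell by 1.48, 1.44 and 1.49 on the log2 scale (1.71e-09, 2.46e-09 and 6.38e-09).

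Chd5, a NuRD ATPase of neurons, was at 1.99, 1.92 and 1.5 CPM in NSC, 17.99, 23.4 and 21.3 in Astrocyte, 11.5, 6.84 and 11.1 in Neuron and 32.7 and 32.1 in Oligodendrocyte. Its paralog Chd3 was at 13.6, 13.3 and 11.8 CPM in NSC, 79.5, 74.9 and 83.4 in Astrocyte, 39.2, 23.9 and 37.4 in Neuron and 126.48 and 126.51 in Oligodendrocyte. For both the order was NSC, Neuron, Astrocyte, Oligodendrocyte without overlap, and Neuron replicate 2 was the lowest of its group. The log2 fold changes against NSC in Astrocyte, Neuron and Oligodendrocyte were 2.96, 1.92 and 3.58 for Chd5 (limma adjusted p 4.63e-10, 5.17e-08 and 2.74e-10) and 2.53, 1.28 and 3.2 for Chd3 (7.01e-10, 1.06e-06 and 2.54e-10).

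Smarca1, an ISWI ATPase, rose from 4.04 to 4.34 CPM in NSC to 25.0 to 28.6 in Neuron (log2 fold change 2.41, limma adjusted p 6.89e-11) and 6.77 to 9.20 in Astrocyte (0.73, 1.86e-05). In Oligodendrocyte it was at 4.84 and 5.03 CPM (0.21, adjusted p 0.118), a value that passed without Astrocyte replicate 3 (0.0439) and was -0.34 under quantile normalization (0.0264). Chd9 rose by 0.81, 1.12 and 1.23 in Astrocyte, Neuron and Oligodendrocyte (0.000132, 5.69e-06 and 7.60e-06).

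Of 9 regulators linked to the switch, 1 rose and 7 fell in Astrocyte, 3 rose and 6 fell in Neuron, and 1 rose and 8 fell in Oligodendrocyte, where 83.6%, 83.1% and 80.2% of all genes were called. Those that rose in Neuron were Mir124a-1hg, Ptbp2 (0.18, limma adjusted p 0.00629), a neural paralog of Ptbp1, and C130071C03Rik. Ptbp1, the splicing repressor of progenitors and a target of miR-124, was at 244, 256 and 265 CPM in NSC, 112, 112 and 110.2 in Astrocyte, 77.3, 72.0 and 80.5 in Neuron and 106.0 and 106.4 in Oligodendrocyte. Its log2 fold changes were -1.19, -1.72 and -1.26 (limma adjusted p 1.70e-10, 4.23e-12 and 4.26e-10). The REST corepressor genes Rcor1 and Rcor2 fell in all 3 media, Rcor1 by 1.08, 1.07 and 1.07 on the log2 scale (2.02e-08, 2.28e-08 and 9.42e-08) and Rcor2 by 1.37, 0.57 and 0.77 (4.76e-09, 4.21e-05 and 7.40e-06). Rest itself, outside the naming rule, fell by 0.23, 0.23 and 0.28 (0.00783, 0.00817 and 0.00447) from 36.6 to 40.7 CPM in NSC.

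The host transcripts of the microRNAs moved apart. Mir124a-1hg, the host of Mir124a-1, was at 0.25, 0.05 and 0.37 CPM in NSC, 8.08, 6.21 and 7.26 in Astrocyte, 4.08, 2.78 and 3.97 in Neuron and 1.06 and 0.44 in Oligodendrocyte. It rose in Astrocyte (log2 fold change 2.74, limma adjusted p 1.17e-09) and Neuron (1.91, 6.08e-08). Like Actl6b, Mir124a-1hg passed the filter on low values only through day 4 libraries, where it was high. The call in Oligodendrocyte (0.50, 0.0177) was lost without Oligodendrocyte replicate 1 (0.24, 0.281) or NSC replicate 2 (0.0694), with no filter on low values (0.0533), with a pseudocount of 5 CPM (0.14, 0.119) and under quantile normalization (0.22, 0.281). In that comparison 1 library alone reached 1 CPM. Mir9-3hg, the host of Mir9-3, fell from 34.4, 35.9 and 35.2 CPM in NSC to 25.1, 21.98 and 25.7 in Astrocyte, 10.8, 9.84 and 11.5 in Neuron and 23.8 and 19.7 in Oligodendrocyte (-0.52, -1.63 and -0.67; adjusted p 7.41e-05, 5.91e-10 and 2.11e-05). The host of Mir9-2, C130071C03Rik, which is outside the naming rule, was at 100.6, 98.3 and 106.3 CPM in NSC, 102, 83.0 and 93.6 in Astrocyte, 129.6, 106 and 136.9 in Neuron and 75.6 and 54.4 in Oligodendrocyte. Its level was highest in Neuron, with replicate 2 within the NSC range (0.28, limma adjusted p 0.0451), and it fell in Oligodendrocyte (-0.66, 0.000475) and did not pass in Astrocyte (-0.13, 0.311). The miR-9 hosts thus moved in opposite directions in Neuron. Host RNA is not the mature microRNA, which poly(A) libraries do not measure.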

How the data were processed

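Libraries were made from total RNA with a stranded poly(A) kit and sequenced on an Illumina HiSeq, per the labels' protocols. The authors deposited 1 table of CPM values for all libraries with mm9 gene coordinates, rounded to 2 decimals, per the file headers. The submitters' processing notes name NCBIM37, bcl2fastq 1.8.4, TopHat2 2.0.8, HTSeq 0.6.1, edgeR 3.2.4, R 3.0.0 and HOMER, without roles. The listed genes made up 74.95% to 80.25% of the CPM total. Low values lay on steps of 1 read within rounding (99.87% to 100% of those under 3 CPM), which gave the estimated depth. Over all steps tried, the median share was already 56.3% to 62.8%. Only 24.0% to 61.5% of low values came within 0.1 of a whole read, so no count test was run.

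Values were taken as log2(CPM + 1) and genes reaching 1 CPM in 2 or more libraries were fitted with limma 3.58.1 in R 4.3.3 (1 mean per group, 7 residual degrees of freedom, mean-variance trend, two-sided moderated test, Benjamini-Hochberg over all genes tested in each comparison). Every adjusted p comes from this fit or a stated alternative to it. The procedure was also run on simulated data with independent libraries and few changed genes, balanced up and down, in Astrocyte only. Those settings are unlike these data, so that run only checks that the code works. No label says that replicates were separate cultures, so p-values measure the spread between these libraries, which may be technical. Members, lists and tests were chosen with earlier results of these data known. Genes from the 3 further lists were named when called with at least a 2-fold change in any of the 6 comparisons. At most 6 a list were named, by size of change against NSC. Gltscr1, BC032203 and Mtap2 were matched to Bicra, Bicral and Map2 by Ensembl ID, and Mir9-3hg and Mir124a-1hg by RefSeq synonym. Marker lists covered neural progenitors, proliferation, neurons, astrocytes, oligodendrocyte precursors, mature oligodendrocytes, microglia, and endothelial and mesenchymal cells. Progenitor markers summed to 5339 to 5805 CPM in NSC and 2843 to 4527 CPM at day 4. Of these 11 genes, 4 rose and 6 fell in Astrocyte, 4 rose and 7 fell in Neuron, and 0 rose and 8 fell in Oligodendrocyte. In Astrocyte and Neuron the list thus moved both ways. Among all tested genes 48% rose and 35.6% fell in Astrocyte, 43.5% and 39.6% in Neuron, and 48.1% and 32.2% in Oligodendrocyte. Sox2 was at 278 to 286 CPM in NSC and 500 to 589 CPM in Neuron, and Nes at 1246 to 1255 and 62.5 to 77.7 CPM. Endothelial and mesenchymal markers summed to 1.97 to 2.26 CPM in NSC and 10.5 to 49.2 CPM at day 4. Most of the latter was Pdgfrb (7.62 to 42.4 CPM), with Pecam1, Cldn5, Col1a1, Col1a2 and Lum at most 0.26 CPM at day 4. Promoters and microRNAs came from RefSeq (GRCm38.p6, with the promoter windows of 9 of 10 members examined, all but Ss18) and 3′ UTRs from GENCODE M21. Alternatives were other pseudocounts, filters, scalings, fits and sets of libraries.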

Additional observations from a re-analysis of the deposited data

How the results depend on the processing

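The 60 member values (10 genes in 6 comparisons) were recomputed under 20 alternatives, and of these 1200 values 1131 kept their direction and side of the threshold, 34 lost the call, 28 gained it and 7 changed sign. Against NSC, Actl6a, Actl6b, Dpf1, Dpf3, Smarca4 and Smarca2 kept direction and call in all 3 media under all 20. With median-of-ratios scaling Dpf2 was at -0.047 in Astrocyte vs NSC and -0.046 in Oligodendrocyte vs NSC. With quantile normalization Dpf2 was at -0.043 in Oligodendrocyte vs Astrocyte and Smarca1 at -0.34 in Oligodendrocyte vs NSC. Leaving out single libraries moved Dpf1 in Oligodendrocyte vs Neuron between -0.16 and 0.016 (without Oligodendrocyte replicates 1 and 2), and Dpf2 in Oligodendrocyte vs Astrocyte between -0.017 and 0.092 (without the same replicates). Dpf3 in Oligodendrocyte vs Astrocyte fell to -0.068 without Oligodendrocyte replicate 2 and to -0.023 without Astrocyte replicate 3. None of these member values was called in either fit, and the cause was not tested. The number of members called in Astrocyte vs Neuron ran from 5 (without Neuron replicate 1 or Astrocyte replicate 2) to 9. It was 8 to 9, 10 in every alternative, and 7 to 9 in Astrocyte, Neuron and Oligodendrocyte vs NSC, 6 to 8 in Oligodendrocyte vs Neuron and 2 to 3 in Oligodendrocyte vs Astrocyte. The median of all genes moved by over 0.1 with quantile normalization in Astrocyte vs NSC (0.15 to -0.014), Oligodendrocyte vs NSC (0.19 to -0.019), Astrocyte vs Neuron (0.10 to -0.014) and Oligodendrocyte vs Neuron (0.15 to -0.015), and by less in the other 2 comparisons, and member directions are relative to it. Depth limits Actl6b most, whose NSC values rest on 2 to 7 reads a library.

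Groups share replicate numbers in the labels. Over the 15 same-numbered pairs, deviations from group means correlated at r from -0.51 to 0.41, with 6 above 0.1. Over the 30 pairs with different numbers r ran from -0.54 to 0.54, with 7 above 0.1. The number was therefore not used as a pairing. Libraries of different groups did share deviations: r was 0.54 for NSC replicate 3 with Neuron replicate 2. Astrocyte replicate 3 was at 0.39 with the first of these and 0.48 with the second. No fit included this, and its cause was not tested. With the replicate block 11146, 11079, 10596, 8265, 8894 and 6793 genes and 8, 10, 9, 8, 7 and 2 members were called in Astrocyte, Neuron and Oligodendrocyte vs NSC, Astrocyte vs Neuron, Oligodendrocyte vs Neuron and Oligodendrocyte vs Astrocyte. Without it these were 11159, 11092, 10706, 8301, 9006 and 6966 genes. The 1 member call that the block changed was that of Dpf2 in Oligodendrocyte vs NSC (0.18, limma adjusted p 0.0375).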

Other observations

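For members whose group means spanned at least 1 on the log2 scale, the 3 genes most alike in profile were found by the root mean square (RMS) difference of centred log2(CPM + 1) values over the 11 libraries, among 11446 genes (11447 for Actl6b). The libraries share their groups and depth, so this is a description with no test. Actl6a was most like Ptbp1 (RMS difference 0.0706), followed by Alg8 (0.0811) and Tubg1 (0.0828). Actl6b was most like Lace1 (0.134), Slc25a23 (0.144) and Adc (0.151), and Dpf3 was most like Crybg3 (0.145), Kif24 (0.168) and Pprc1 (0.187). Dpf1 was most like Wdr3 (0.0521), Papd4 (0.0707) and Fubp1 (0.0726). Smarca4 was most like Rexo1 (0.0716), Gcn1l1 (0.0770) and Pwp2 (0.0847), and Smarca2 was most like Phlpp1 (0.0626), Tcf7l1 (0.0668) and Adam22 (0.0842). Phf10, Dpf2, Ss18 and Ss18l1 spanned less than 1.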
